A study of Mus musculus with 7 samples.

Results

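The genes of the Arp2/3 complex and of the WASP and WAVE proteins that switch it on were examined in mammary glands of PRA transgenic and wild-type mice. They were picked as genes of this pathway, 32 out of the 37074 gene names on the array, at a point when earlier results of these data were known. All 32 had at least 1 probe under their own name, 69 probes in total. Probes were tested if the scanner software called the gland signal well above background throughout either genotype, which 62 of the 69 were. For 31 genes a tested probe was therefore at hand, and the exception was Wasf3.

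RNA came from 1 abdominal gland per animal, with lymph nodes cut out, of virgin FVB females 20 to 25 weeks old and in diestrus. There were 3 wild-type and 4 PRA transgenic mice, 1 per array. PRA transgenic animals carry a GAL-4 transgene under the cytomegalovirus promoter and a second transgene with the A form of the progesterone receptor behind the GAL-4 binding site, so that the A form is made in excess over the B form, and wild-type littermates served as controls. Gland RNA was labelled with Cy5 and hybridised beside Cy3-labelled Universal Mouse Reference RNA, a pool from 11 cell lines that includes T-lymphocyte, B-lymphocyte and macrophage lines. Every level given here is thus a log2 ratio of gland over reference, in which 0 means an equal signal, and every difference is a log2 fold change of PRA transgenic minus wild-type.

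Arp2/3 is a protein complex that binds to the side of an actin filament and starts a new one as a branch. It is idle until a nucleation promoting factor activates it. WASP and N-WASP do this after binding the GTPase Cdc42, and are held by WIP proteins. WAVE proteins do it downstream of the GTPase Rac, as part of a complex with CYFIP, NCKAP1, ABI and BRK1. Branched actin pushes out lamellipodia, drives endocytosis and phagocytosis, and supports the junctions between epithelial cells. Several of these proteins come in a widely expressed form and in a form typical of blood cells.

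Over the whole array 56605 probes were measured and 34284 were tested with limma. The arrays correlated with each other at 0.876 to 0.937 over the tested probes, and no member spot was saturated. Arrays of wild-type mice were in row 1 of the single slide and those of PRA transgenic mice in row 2, and the effects of row and genotype cannot be told apart. In Cy5 62.6% to 66.1% of probes were well above background on wild-type arrays and 56.6% to 60.2% on PRA transgenic arrays. The Cy3 reference, which is the same RNA throughout, also differed, at 53.2% to 54.0% and 47.2% to 50.6%. Markers of luminal and basal epithelium and of white adipocytes were present on every array. Pgr, the receptor gene itself, had a log2 fold change of -0.65 with a standard error (SE) of 0.80, but its reference signal was well above background on none of the 7 arrays. In Cy5 alone the difference was 0.034, and whether the probe reads the transgene is not known. With whole glands, fewer cells of a type and less RNA per cell cannot be told apart.

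Most of the members leaned to lower values in PRA transgenic glands, by small amounts. With the brightest tested probe standing for each gene, 25 of 31 log2 fold changes were below 0, or 80.6%, against 47.3% among the brightest probes of all 22499 gene names tested. The median was -0.15 over the members and 0.014 over all gene names. The lean was weaker by probe. Of the 62 tested member probes 40 were below 0 (64.5%), with a median of -0.093 against 0.024 over all probes. By role the share of probes ran from 42.9% for WIP genes and 46.7% for WAVE partners to 100% for the WASP family and the GTPases. Genes of 1 pathway measured in the same animals are not independent, so these shares carry no test. At an unadjusted p under 0.05 from limma there were 2 members, Actr2 and Arpc5, both lower in PRA transgenic glands. That is 6.45% of the members, while 7.95% of all gene names passed in either direction and 4.35% were lower. No member passed an adjusted p of 0.05 in limma (lowest 0.418), a level that 0.00444% of all gene names reached. By the methods' t-test, which the study names for its own comparison, 4 members had an unadjusted p under 0.05, where 8.52% of all gene names did, and 0 members passed after Benjamini-Hochberg adjustment. In 6 members the genotypes did not overlap, each time with all 4 PRA transgenic arrays below all 3 wild-type arrays. These 6 are 19.4% of the members, against 4.52% of all gene names for that direction. Counted by probe, 8 of the 62 tested member probes (12.9%) had an unadjusted p under 0.05 and all 8 were lower in PRA transgenic glands, where 9.02% of all probes passed and 4.48% were lower. The 8 probes belong to 7 genes, and the genotypes did not overlap at 11 member probes that were lower and 1 that was higher, against 4.53% and 5.42% of all probes. These counts include 1 dim Actr3 probe, whose reference signal was well above background on 1 array. Without it 7 of 61 passed and 10 did not overlap with lower values.

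**Figure D1:**
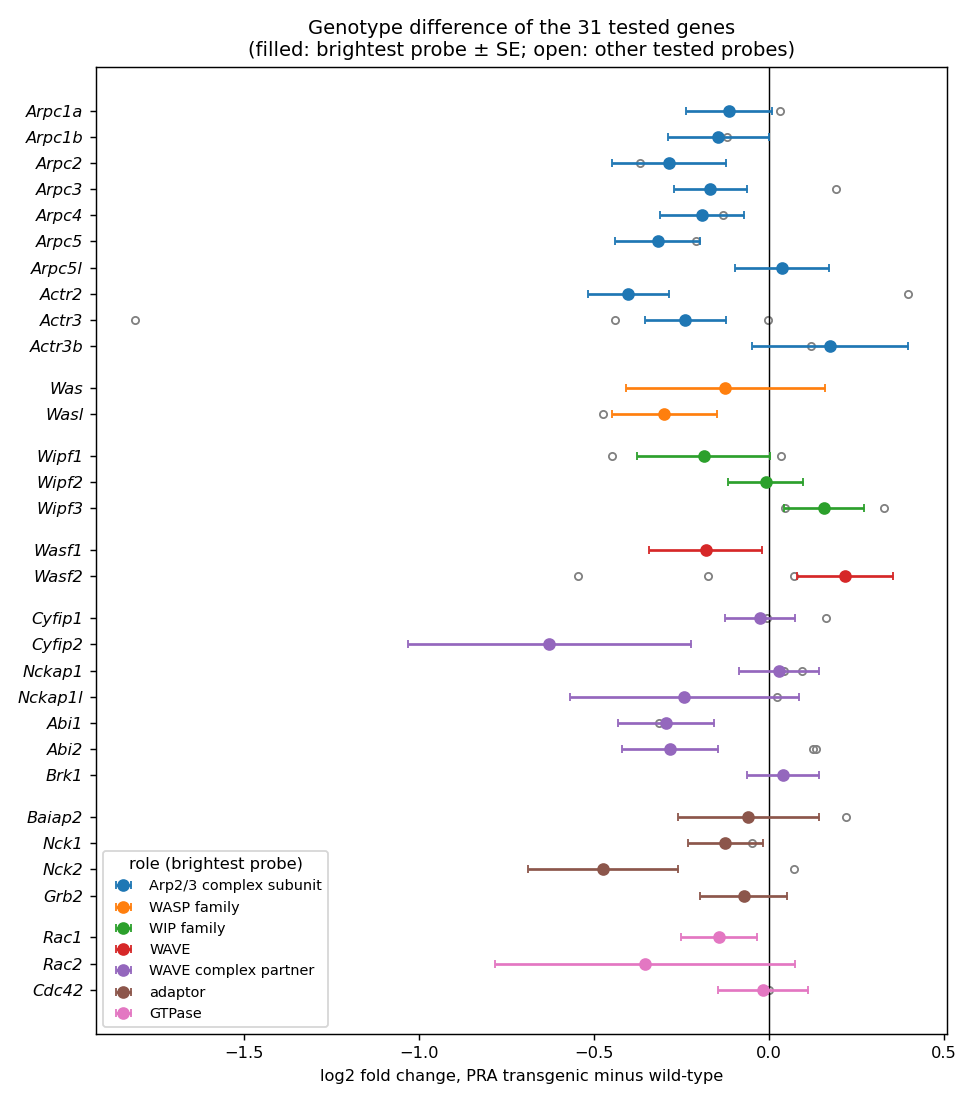
Log2 fold change (PRA transgenic minus wild-type, x axis) of the 31 tested genes, grouped by role. Filled points are the brightest probe with its standard error from limma, open points are other tested probes of the gene. Of the filled points 25 lie below 0, and 10 genes have tested probes on both sides of 0.

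The size of these differences was within 0.2 on the log2 scale for 19 of the 31 members, and 1 member, Cyfip2, exceeded 1.5-fold without passing the test. How many members pass rests on single arrays. There was 1 without wild-type replicate 1 or PRA transgenic replicate 3, where 7.5% and 5.77% of all gene names passed. There were 4 without wild-type replicate 2 or PRA transgenic replicate 4, where 6.69% and 11.3% passed. Members whose genotypes do not overlap numbered 12 without wild-type replicate 3 and 10 without PRA transgenic replicate 1 or 4, and leaving out an array makes such separation easier by construction. Of all gene names 16.1% separated in the first case, and 14.3% and 18.9% in the others. The median of the members was -0.22 without wild-type replicate 3.

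The 10 Arp2/3 complex genes held both of the members that passed. That is 20.0% of the 10, where 4.35% of all gene names were lower at that level. Of these 10, 8 had a log2 fold change below 0 (80.0%, against 47.3% of all gene names) and the median was -0.18. In 4 of them (40.0%), Actr2, Actr3, Arpc3 and Arpc5, the genotypes did not overlap. Of all gene names 4.52% separated in that direction. The 10 genes belong to 1 complex and were read in the same animals, so these shares carry no test. The 2 that were not lower were Arpc5l and Actr3b, alternative forms that can take the place of Arpc5 and Actr3 in the complex.

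Actr2 encodes Arp2, an actin-related protein that with Arp3 forms the first unit of the new filament. Its brightest probe (A_55_P2907774, chromosome 11 of mm9, 19962288 to 19962311, minus strand) had log2 ratios of -0.17, -0.18 and -0.14 on the wild-type arrays and -0.57, -0.62, -0.68 and -0.39 on the PRA transgenic arrays. The wild-type arrays lay close together and all PRA transgenic arrays were below them. The means were -0.16 ± 0.021 (SD, n = 3) and -0.57 ± 0.12 (SD, n = 4). The log2 fold change was -0.40 (SE 0.12), 1.32-fold lower, with an unadjusted p of 0.00991 and an adjusted p of 0.418 from limma. It was -0.33 in the Cy5 channel alone and 0.077 in the Cy3 reference.

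A second Actr2 probe did not follow the first. It lies 38.6 kb upstream along the gene (A_55_P2901111, chromosome 11, 20000827 to 20000886) and reads the start of the transcript, where the brightest probe reads the far end. The first 30 of the 60 bases of each are shown here, since the finding on Actr2 depends on which is read.
Actr2, downstream probe: ggatggaatctggaataaaacagtgaaaga
Actr2, upstream probe: agctttggttggaagacctattatcagatc
The upstream probe had log2 ratios of 0.061, -0.36 and -0.43 in wild-type and 0.26, 0.34, -0.049 and 0.062 in PRA transgenic glands. Here the PRA transgenic arrays were mostly the higher ones, with an overlap at wild-type replicate 1. This is a difference of 0.40 (SE 0.17, unadjusted p = 0.0514, adjusted p = 0.556 in limma). It was 0.25 in the Cy5 channel alone and -0.14 in the Cy3 reference. The upstream probe was also much dimmer, with a mean log2 Cy5 of 6.06 against 11.1 for the downstream probe. With the median over both probes in place of the brightest, Actr2 had a log2 fold change of -0.003 and an unadjusted p of 0.98 by limma, so the call was lost.

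Arpc5 encodes the smallest of the ARPC subunits. Its brightest probe (chromosome 1 of mm9, 154622603 to 154622662) had log2 ratios of 0.71, 0.61 and 0.77 in wild-type and 0.24, 0.46, 0.30 and 0.52 in PRA transgenic glands. All 4 PRA transgenic arrays were below the wild-type arrays. The difference was -0.32 (SE 0.12), 1.25-fold lower, with an unadjusted p of 0.034 and an adjusted p of 0.511 from limma. Its second probe pointed the same way at -0.21 with overlapping genotypes. The unadjusted p ended above 0.05 without wild-type replicate 1 (0.0817) or 3 (0.0992), without PRA transgenic replicate 1 (0.0757) or 3 (0.0832), and in Cy5 alone (0.0929). Arpc5l, its paralogue, had values from -0.053 to 0.052 in wild-type and from -0.22 to 0.21 in PRA transgenic glands, with a log2 fold change of 0.037 (SE 0.14).

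Actr3 encodes Arp3, the partner of Arp2. Its brightest probe had log2 ratios of -0.18, -0.41 and -0.43 in wild-type and -0.50, -0.62, -0.64 and -0.55 in PRA transgenic glands. The groups did not overlap, and the log2 fold change of -0.24 (SE 0.12) had an unadjusted p of 0.078 in limma. A neighbouring probe 0.45 kb upstream (A_66_P110213) had -0.092, -0.38 and -0.26 against -0.72, -0.73, -0.61 and -0.68. There the gap between genotypes was wider, with a log2 fold change of -0.44 (SE 0.12, unadjusted p = 0.00686, adjusted p = 0.405 from limma). The probe at the start of the gene, 42.0 kb upstream, showed no gap, at -0.0032 (SE 0.13).

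The remaining Actr3 probe (A_55_P2722105) had the largest log2 fold change of any member probe, at -1.81. Its gland signal was well above background on 3 wild-type and 2 PRA transgenic arrays, and its reference signal on 1 of the 7 arrays. In Cy5 alone the difference was -0.25, and the Cy3 reference moved by 1.58. Most of its ratio difference thus came from the reference channel. Actr3b had log2 ratios of -1.12, -1.05 and -1.61 in wild-type and -1.19, -0.64, -1.12 and -1.39 in PRA transgenic glands, with groups that overlapped and a log2 fold change of 0.17 (SE 0.22).

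Arpc2 forms with Arpc4 the core that clamps the mother filament. Its brightest probe had log2 ratios of 0.14, 0.31 and -0.16 in wild-type and 0.068, -0.34, -0.24 and -0.23 in PRA transgenic glands, which overlapped. Between genotypes the log2 fold change was -0.29 (SE 0.16, unadjusted p = 0.121 by limma), and without wild-type replicate 3 it was -0.41 (unadjusted p = 0.0451). Its upstream probe (A_51_P152199) had -0.54, -0.62 and -0.74 against -1.07, -0.94, -1.06 and -0.95. These did not overlap, and the log2 fold change was -0.37 (SE 0.11, unadjusted p = 0.012, adjusted p = 0.426 from limma). Both probes of Arpc2 thus pointed the same way. Arpc4 had values from -0.38 to -0.29 in wild-type and from -0.64 to -0.38 in PRA transgenic glands, with a log2 fold change of -0.19 (SE 0.12).

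Arpc3 had log2 ratios of -0.097, -0.042 and -0.021 in wild-type and -0.14, -0.22, -0.29 and -0.23 in PRA transgenic glands. The groups did not overlap, but the difference was small, at -0.17 (SE 0.10, unadjusted p = 0.147 in limma). Its upstream probe (A_66_P110297) did not overlap either, in the opposite direction. It had -0.25, -0.40 and -0.28 in wild-type and -0.16, -0.031, -0.20 and -0.081 in PRA transgenic glands, a difference of 0.19 (SE 0.11). With the median over both probes Arpc3 had a log2 fold change of 0.012.

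Arpc1a and Arpc1b encode alternative forms of the propeller subunit, the second of which is abundant in blood cells. Arpc1a had 0.56, 0.64 and 0.63 in wild-type and 0.62, 0.37, 0.36 and 0.63 in PRA transgenic glands. Arpc1b had 0.20, 0.27 and -0.068 in wild-type and 0.17, -0.21, -0.030 and 0.022 in PRA transgenic glands. Both overlapped between genotypes, with log2 fold changes of -0.11 (SE 0.12) and -0.15 (SE 0.14).

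**Figure D2:**
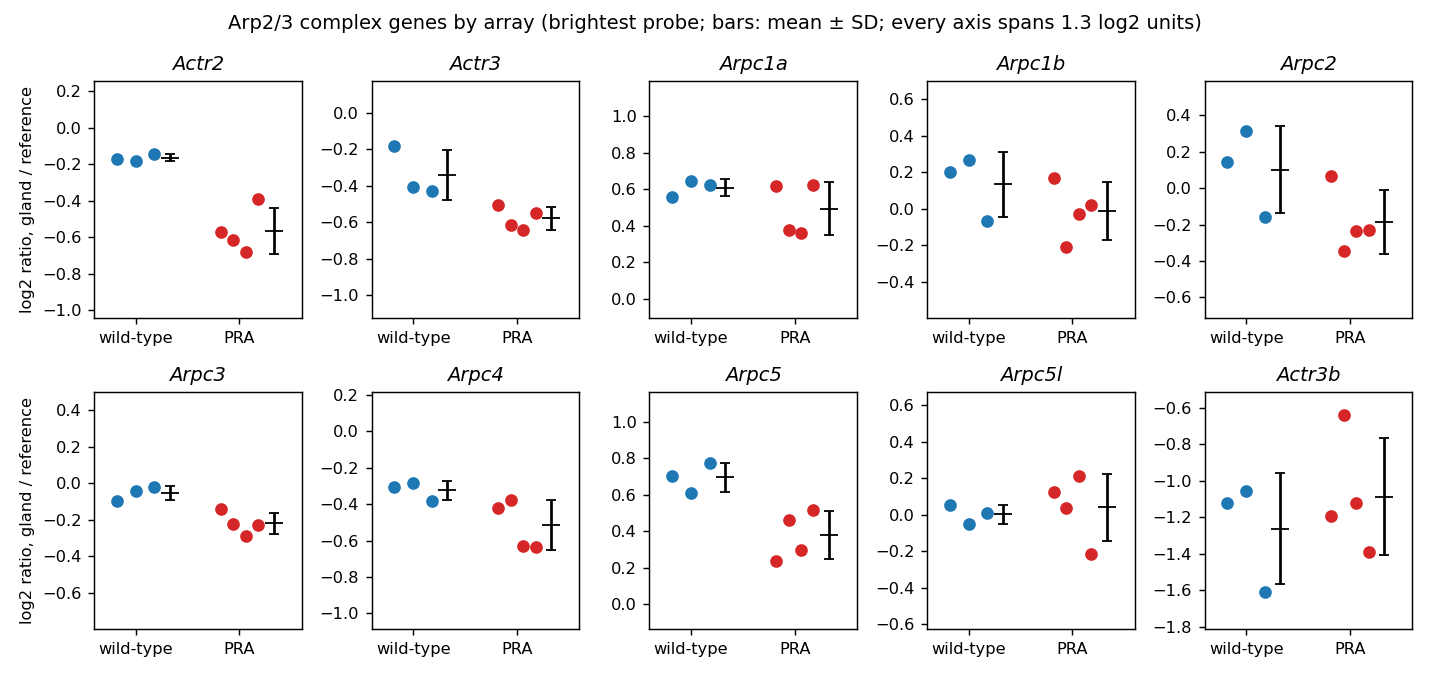
Log2 ratio of gland over reference (y axis) for the 10 Arp2/3 genes by their brightest probe, 1 point per array, with the mean and SD of 3 wild-type (blue) and 4 PRA transgenic (red) arrays. Each panel has its own centre and the same span of 1.3 log2 units. In Actr2, Actr3, Arpc3 and Arpc5 every PRA transgenic point is below every wild-type point.

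The mean of a marker list also separated the genotypes. The mean log2 ratio of the 4 neutrophil markers tested, Csf3r, Ly6g, S100a8 and S100a9, was 1.54 to 2.05 on wild-type arrays and 0.615 to 1.36 on PRA transgenic arrays, which do not overlap. Singly they differed. Csf3r had a log2 fold change of 0.17, and Ly6g ranged from -1.35 to 3.40 with overlap. S100a9 was 5.035 to 5.42 in wild-type and 1.07, 4.59, 4.87 and 4.81 in PRA transgenic glands, which do not overlap. Its unadjusted p was 0.168 in limma. S100a8 was the only marker of the 4 with an unadjusted p under 0.05 (0.0454 in limma), with genotypes that overlap, and 3 of the 4 were well above background on all arrays. The lists for leukocytes, T cells, B cells, macrophages, fibroblasts, endothelium, luminal and basal epithelium, white adipocytes, skeletal muscle and Schwann cells all overlapped between genotypes. That holds for their means, and single markers in those lists did separate. Emcn of endothelium (0.78, unadjusted p = 0.00171 in limma) and Lipe of white adipocytes (0.42, unadjusted p = 0.0281) were higher in PRA transgenic glands. Col3a1 of fibroblasts was lower (-0.53, unadjusted p = 0.0159). None of these 3 passed an adjusted p of 0.05. The part of RNA from any of these cell types in the Arp2/3 values was not tested.

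Where a probe lies along its gene also moved with genotype. For 20 members the most upstream and most downstream tested probes were at least 1 kb apart. In 15 of these 20 the upstream probe had the higher log2 fold change. The same held for 60.4% of 6217 gene names on the array, with a median gap of 0.075 over all of them and 0.11 over the 20 members. By array, the median gap over all these gene names, centred on the mean of the 7 arrays, was -0.069 to -0.005 in wild-type and 0.003 to 0.065 in PRA transgenic glands. All PRA transgenic arrays were therefore above all wild-type arrays in this measure, by a small amount. The part of probe position in the members' differences was not tested.

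The members with the widest gap were Actr2 (0.80), Nck2 (0.55), Abi2 (0.42) and Arpc3 (0.36). Wasf2 went the other way (-0.37). Arpc2 (-0.085), Abi1 (-0.020) and Arpc1b (-0.025), whose probes all pointed down, had small gaps. By the median over the tested probes of each gene, 4 members had an unadjusted p under 0.05 in limma, where 8.08% of all gene names did. They were Arpc2 (-0.33, unadjusted p = 0.0271), Actr3 (-0.32, unadjusted p = 0.0254), Wasl (-0.39, unadjusted p = 0.0302) and Abi1 (-0.30, unadjusted p = 0.0498), and neither Actr2 nor Arpc5 was among them. None of these 4 passed an adjusted p of 0.05. The Actr3 value includes the probe with the dim reference, and over its probes well above background in both channels it was -0.24 (unadjusted p = 0.0493).

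**Figure D3:**
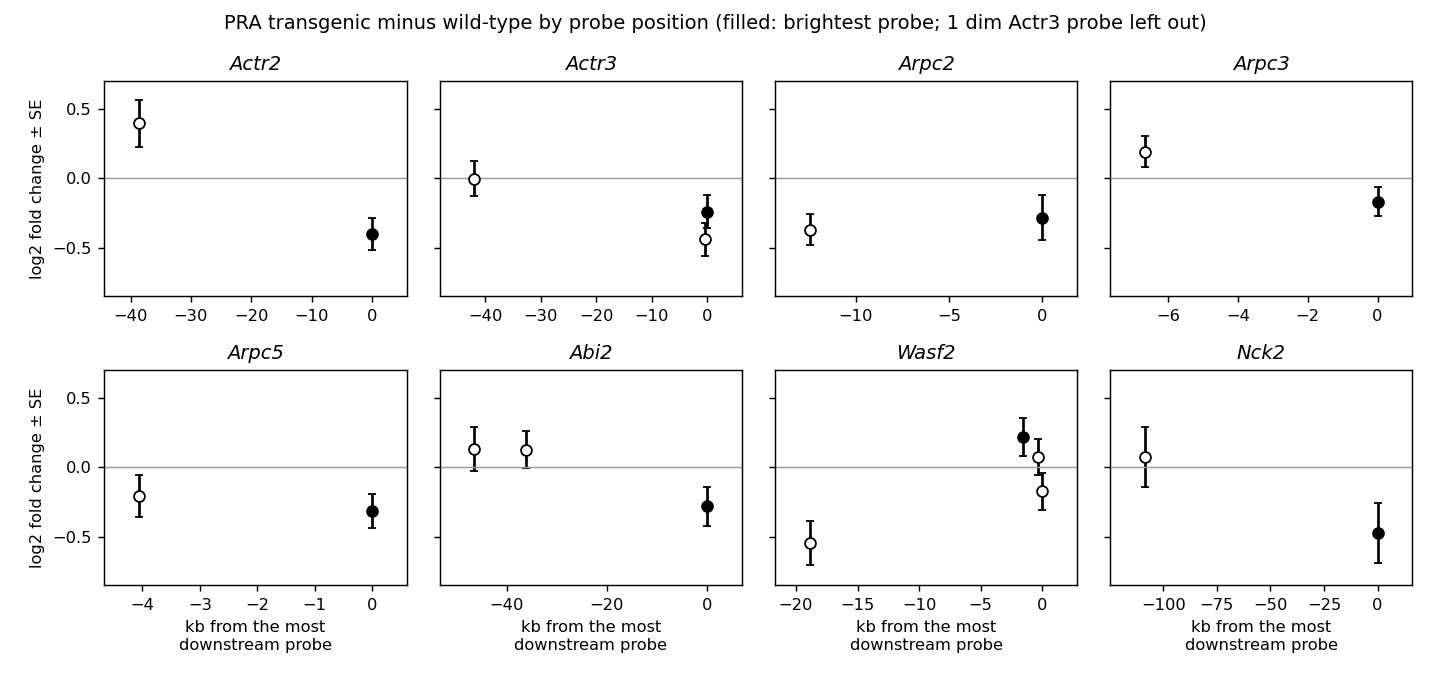
Log2 fold change with standard error (y axis) of the tested probes of 8 members against distance in kb from the most downstream probe of the gene (x axis, upstream to the left). Filled points are the brightest probe. In Actr2, Arpc3, Abi2 and Nck2 the upstream probe is above 0 and the downstream probe below it, in Arpc2 and Arpc5 both are below 0, and in Wasf2 the order is turned.

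The WASP family had 2 members. Wasl encodes N-WASP, the form found in most tissues. Its brightest probe had log2 ratios of -0.081, 0.079 and -0.11 in wild-type and -0.058, -0.45, -0.55 and -0.29 in PRA transgenic glands, where PRA transgenic replicate 1 overlapped the wild-type arrays. Wasl differed by -0.30 (SE 0.15, unadjusted p = 0.0852 in limma), and without PRA transgenic replicate 1 it was -0.39 (unadjusted p = 0.0257). Its other probe (A_66_P100074) separated the genotypes, with -0.090, 0.088 and -0.21 against -0.40, -0.77, -0.64 and -0.36. That log2 fold change was -0.47 (SE 0.15, unadjusted p = 0.0156, adjusted p = 0.454 from limma), and -0.40 without wild-type replicate 2 (unadjusted p = 0.0589). Of the WIP proteins, which hold WASP proteins and steady them, Wipf1 had a log2 fold change of -0.19 (SE 0.19), Wipf2 of -0.0099 (SE 0.11) and Wipf3 of 0.16 (SE 0.11).

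Among the WAVE genes Wasf2, the widely expressed form, gave no single answer. Its brightest probe, near the far end of the transcript, had log2 ratios of 0.24, 0.18 and 0.027 in wild-type and 0.21, 0.44, 0.23 and 0.58 in PRA transgenic glands, a difference of 0.22 (SE 0.14). An upstream probe that spans an intron (A_52_P597860) had 0.31, 0.71 and 0.26 against 0.042, -0.22, -0.29 and -0.0099. There the genotypes did not overlap, and the log2 fold change was -0.55 (SE 0.16, unadjusted p = 0.011, adjusted p = 0.421 from limma). The other 2 probes of Wasf2 had -0.17 and 0.071. Wasf1, the form best known from neurons, had -0.28, -0.58 and -0.75 in wild-type and -0.52, -0.94, -0.72 and -0.69 in PRA transgenic glands, with a log2 fold change of -0.18 (SE 0.16). Wasf3 had 3 probes, and only 1 of them was well above background on any array, on 1 wild-type array. No fold is given for it.

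None of the 7 partners of WAVE passed the test by the brightest probe. Abi1, an adaptor inside the complex, had 0.39, 0.38 and 0.33 in wild-type and 0.026, 0.0020, -0.096 and 0.35 in PRA transgenic glands. PRA transgenic replicate 4 alone reached the wild-type level. Abi1 differed by -0.30 (SE 0.14, unadjusted p = 0.0674 in limma), and without that array it was -0.39 (unadjusted p = 0.0126). The second Abi1 probe had -0.32 (SE 0.13, unadjusted p = 0.0453, adjusted p = 0.54 from limma). That p ended above 0.05, between 0.0796 and 0.124, without any single one of wild-type replicates 1 and 2 and PRA transgenic replicates 1, 2 and 3. Abi2, a relative of Abi1, had -0.83, -0.62 and -0.86 in wild-type and -0.87, -1.25, -1.10 and -0.9995 in PRA transgenic glands. These just failed to overlap at -0.86 and -0.87, and the log2 fold change was -0.28 (SE 0.14, unadjusted p = 0.077 in limma). Its other 2 probes were at 0.13 and 0.13. Nckap1, Cyfip1 and Brk1, the other subunits found in most cells, had log2 fold changes of 0.029 (SE 0.12), -0.026 (SE 0.099) and 0.040 (SE 0.10).

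Adaptors and GTPases upstream of the complexes overlapped between genotypes, except Nck2. Nck2 is an SH2 and SH3 adaptor that ties tyrosine kinases to N-WASP. It had 1.31, 0.60 and 0.64 in wild-type and 0.49, 0.45, 0.059 and 0.50 in PRA transgenic glands. Wild-type replicate 1 was the highest and PRA transgenic replicate 3 the lowest of the 7. Nck2 differed by -0.47 (SE 0.21, unadjusted p = 0.0615 in limma), and the leave-one-out values ran from -0.60 to -0.25. Nck1 had -0.13 (SE 0.11), Grb2 -0.072 (SE 0.12) and Baiap2, the adaptor IRSp53 that links Rac to WAVE, -0.060 (SE 0.20). Cdc42, the GTPase that opens N-WASP, had 0.46, 0.81 and 0.51 in wild-type and 0.64, 0.50, 0.62 and 0.53 in PRA transgenic glands, a difference of -0.017 (SE 0.13).

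Some members varied more between animals than between genotypes. Was, Rac2, Nckap1l and Cyfip2 are paralogues of Wasl, Rac1, Nckap1 and Cyfip1. WASP, RAC2 and HEM1 (the product of Nckap1l) are typical of blood cells, and CYFIP2 is known from lymphocytes and neurons. In all 4 of them PRA transgenic replicate 4 was the highest of its genotype, and wild-type replicate 1 was the highest of its own. The same order held for the brightest probes of Wipf1, Wasf2, Abi1 and Nck2, so it is not particular to these paralogues. By their brightest probes Rac1, Nckap1 and Cyfip1 were nearly level over the 7 arrays, with ranges of 0.31, 0.24 and 0.081. Wasl varied over 0.63 without following those arrays. Other, dimmer probes of Cyfip1 and Nckap1 varied more. For Cyfip1 they ran from -0.58 to -0.093 (A_55_P2760935) and from -0.016 to 0.59 (A_55_P2731116). For Nckap1 A_52_P7948 ran from -0.29 to 0.16. Arpc1b, also abundant in blood cells, did not share the pattern. Its highest arrays were wild-type replicate 2 and PRA transgenic replicate 1, and wild-type replicate 1 and PRA transgenic replicate 4 were 1.07-fold and 1.03-fold the mean of the others of their genotype.

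The Was and Wasl promoters are printed since this pair shows the contrast within the WASP family. Each is the RefSeq window of 250 bases before to 50 after the start (build GRCm38.p6), with GAGGAA, the core of the PU box read by the leukocyte factor PU.1, in capitals on either strand.
Was, chrX:8090442-8090741, minus strand: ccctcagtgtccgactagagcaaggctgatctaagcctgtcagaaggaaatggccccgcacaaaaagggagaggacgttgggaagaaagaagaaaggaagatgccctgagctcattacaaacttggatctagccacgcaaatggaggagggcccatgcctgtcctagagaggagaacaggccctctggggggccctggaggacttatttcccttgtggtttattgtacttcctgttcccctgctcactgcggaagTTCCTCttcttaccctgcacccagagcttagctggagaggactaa
Wasl, chr6:24664946-24665245, minus strand: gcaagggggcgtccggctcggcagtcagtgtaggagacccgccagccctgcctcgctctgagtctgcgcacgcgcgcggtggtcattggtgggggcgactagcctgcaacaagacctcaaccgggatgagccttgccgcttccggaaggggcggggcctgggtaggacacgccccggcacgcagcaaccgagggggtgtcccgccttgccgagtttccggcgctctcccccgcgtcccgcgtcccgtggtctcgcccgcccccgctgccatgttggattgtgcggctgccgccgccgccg
The Was window held GAGGAA 1 time, the Wasl window did not, and 28.3% of the 32851 windows in the table hold it. Windows were matched for 24 of the 32 members, 29 windows in all, and 8 of these 29 held it (27.6%), among them windows of the widely expressed Grb2, Brk1 and Abi1. CG, counted in the window as written, occurred 5 times in Was and 36 times in Wasl, against a median of 7 over all windows. The median over the 29 member windows was 26. These counts describe the letters only.

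Rac2, the blood-cell Rac, had log2 ratios of -0.92, -2.49 and -2.63 in wild-type and -2.55, -2.36, -2.65 and -1.92 in PRA transgenic glands. Wild-type replicate 1 was 3.13-fold above the mean of the other wild-type arrays, and PRA transgenic replicate 4 was 1.52-fold above the mean of the others. The log2 fold change between genotypes was -0.35 (SE 0.43), and without wild-type replicate 1 it was 0.19. Rac1, the common form, had -0.86, -0.78 and -0.90 in wild-type and -0.90, -1.04, -1.09 and -0.94 in PRA transgenic glands, a range of 0.31 over the 7 arrays against 1.74 for Rac2. Its log2 fold change was -0.14 (SE 0.11).

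Was had -0.17, -1.04 and -1.06 in wild-type and -0.98, -1.10, -1.09 and -0.37 in PRA transgenic glands. The same pair of arrays stood 1.84-fold and 1.61-fold above the rest of their genotype. The log2 fold change was -0.12 (SE 0.28), and without wild-type replicate 1 it was 0.17. For Wasl the same arrays were 0.956-fold and 1.04-fold the mean of the others.

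Cyfip2 had -1.80, -3.41 and -2.89 in wild-type and -3.61, -3.41, -3.60 and -2.70 in PRA transgenic glands, with a log2 fold change of -0.63 (SE 0.40, unadjusted p = 0.164 in limma). Without wild-type replicate 2 it was -0.98 (unadjusted p = 0.0442), and without wild-type replicate 1 it was -0.18. Cyfip1 had 0.14, 0.18 and 0.15 in wild-type and 0.17, 0.13, 0.12 and 0.094 in PRA transgenic glands, a range of 0.081 against 1.81 for Cyfip2. These 2 probes were unlike in brightness, with a mean log2 Cy5 of 10.5 for Cyfip1 and 6.43 for Cyfip2. A Cyfip1 probe at 6.11 (A_55_P2731116) ran from -0.016 to 0.59 over the 7 arrays. Nckap1l had 0.59, 0.37 and -0.082 in wild-type and -0.38, -0.11, -0.20 and 0.89 in PRA transgenic glands, and here PRA transgenic replicate 4 was the highest of all. Its log2 fold change was -0.24 (SE 0.33), and without that array it was -0.52 (unadjusted p = 0.0415 in limma). The second Nckap1l probe (A_66_P132040) had 0.024 (SE 0.23), and -0.11 without that array (unadjusted p = 0.614 in limma). Nckap1 had 0.29, 0.40 and 0.28 in wild-type and 0.42, 0.29, 0.47 and 0.22 in PRA transgenic glands.

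Marker lists separated these arrays further. The mean log2 ratio of the leukocyte markers Ptprc, Coro1a and Laptm5 was 0.194 on wild-type replicate 1 and -0.086 on PRA transgenic replicate 4, against -0.576 to -0.358 on the other 5 arrays. Coro1a and Laptm5 carried most of this. Ptprc, which encodes CD45, was also highest of each genotype on these 2 arrays, at -0.30 and -0.18. It varied little, from -0.56 to -0.18 over the 7 arrays, and PRA transgenic replicate 3 (-0.26) was above wild-type replicate 1. T cell markers were high on wild-type replicate 1 alone, at 1.57 against -0.792 to -0.182. B cell markers were too, at 0.706 against -1.46 to -0.872, where 4 of 6 markers were tested. Macrophage markers were highest on PRA transgenic replicate 4, at 3.28 against 2.36 to 2.89. All of the listed leukocyte, T cell and macrophage markers were well above background on all arrays, as were the 4 B cell markers. The part of these cells in the values of the 4 genes was not tested. Without these 2 arrays 13 members had genotypes that do not overlap, where 28.5% of all gene names did. An unadjusted p under 0.05 in limma was reached by 2 members, Actr2 and Abi1, and by 9.98% of all gene names.

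**Figure D4:**
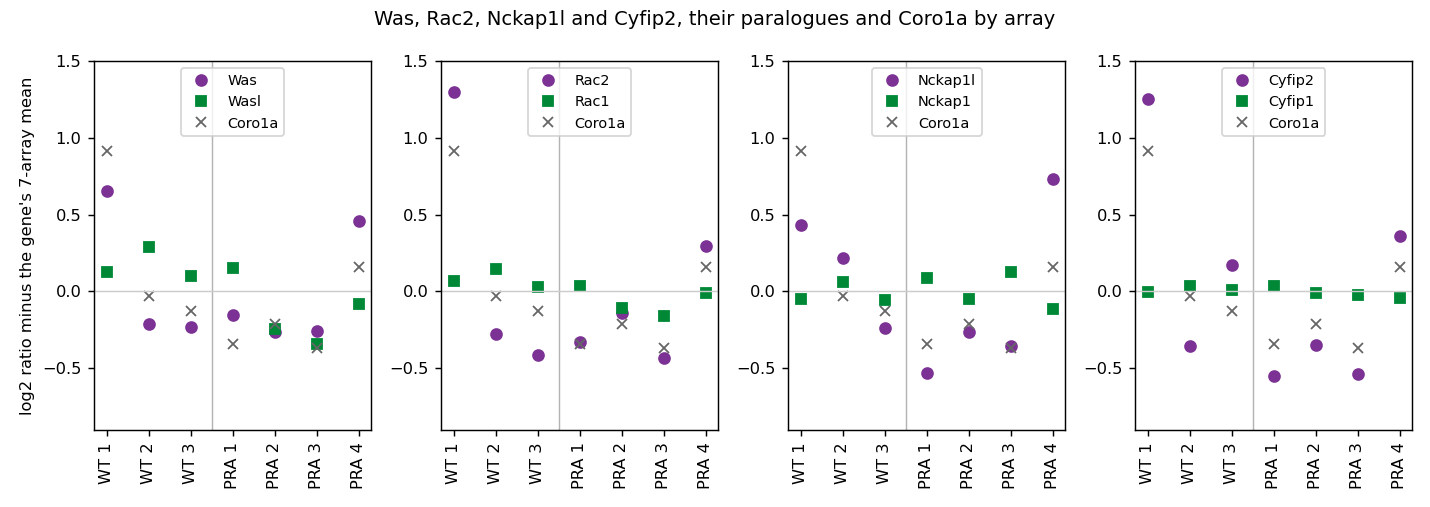
Log2 ratio minus the mean of the gene over the 7 arrays (y axis), by array (x axis, wild-type left and PRA transgenic right of the line). Shown are 4 genes (circles), their paralogues (squares) and Coro1a (crosses). Coro1a is 1 of the 3 leukocyte markers, of which Ptprc varied least. Circles are highest on wild-type replicate 1 for Was, Rac2 and Cyfip2 and on PRA transgenic replicate 4 for Nckap1l. Squares, the brightest probe of each paralogue, do not follow those arrays.

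Other genes of actin assembly were read from a list of 58, all of which had a tested probe, 9 of them under an older name. Of these 36 had a log2 fold change below 0, or 62.1%, with a median of -0.052. At an unadjusted p under 0.05 in limma there were 5, all lower in PRA transgenic glands, which is 8.62% against 7.95% of all gene names. The lowest p was that of Vasp, which protects growing filament ends from capping. It had -0.11, -0.30 and -0.22 in wild-type and -0.61, -0.55, -0.68 and -0.56 in PRA transgenic glands, a difference of -0.39 (SE 0.11, unadjusted p = 0.00847, adjusted p = 0.412).

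Cttn encodes cortactin, which binds Arp2/3 at the branch and keeps it there. It had 0.067, 0.38 and 0.47 in wild-type and -0.049, 0.054, -0.27 and -0.096 in PRA transgenic glands, a difference of -0.40 (SE 0.15, unadjusted p = 0.0293 by limma). Trio, an exchange factor for Rac, had a log2 fold change of -0.44 (SE 0.13). Capza2, a capping protein subunit, had -0.41 (SE 0.12), and Elmo1, which works with DOCK proteins to load Rac, had -0.51 (SE 0.21). The unadjusted p of Cttn ended above 0.05 without wild-type replicate 2 or 3 or PRA transgenic replicate 3 or 4, and that of Elmo1 without wild-type replicate 2 or 3 or PRA transgenic replicate 1 or 3, in a range of 0.0528 to 0.136. The genotypes overlapped in Elmo1 and did not in Vasp, Trio, Capza2, Cttn and Pak2, each time with lower values in PRA transgenic glands. These 5 are 8.62% of the 58, against 4.52% of all gene names for that direction. Of the next 5 genes by p, none of which passed, Pak2, Rhoh, Whamm, Vav2 and Pak1 had log2 fold changes of -0.24, -1.03, -0.29, 0.47 and 0.41. Rhoh was -0.39 without wild-type replicate 1, and Pak1 was 0.17 without wild-type replicate 2.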

How the data were processed

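Each array held gland RNA in Cy5 and reference RNA in Cy3, with no dye swap. The authors deposited scanner output with intensity values that Agilent Feature Extraction had corrected for background and dye (12.0 in the submitters' processing notes, 11.5.1.1 in the file headers). A series table of log2 values was deposited too and matched the log ratio of those intensities after each probe was centred on its median. Here log2(Cy5/Cy3) was taken, control and outlier spots were left out and spots of a probe averaged. Probes whose Cy5 was well above background throughout either genotype entered lmFit and eBayes (limma 3.58.1, R 4.3.3), p-values were adjusted over all 34284 probes by Benjamini-Hochberg, and tables were made with pandas 2.3.3. The steps were tested on simulated data. Per the labels groups were wild-type (n = 3) and PRA transgenic (n = 4). The number of arrays limits the precision.

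The brightest tested probe in Cy5 stood for a gene. Members and gene lists were chosen with earlier results of these data known. Per-array values were given for members with an unadjusted p under 0.05, with genotypes that do not overlap or with a paralogue, and, in the wider list, for the genes of lowest p (10 were named). Marker lists had 3 to 8 genes. Probe names and positions (mm9) are those in the files. Older names were matched through RefSeq genes of GRCm38.p6, and promoters are RefSeq sequences of that build. The alternatives were each array left out, the median over a gene's probes, Cy5 alone, array weights, an intensity trend, the methods' t-test, normexp (offset 50) and loess, quantile normalization, the series table, a replicate block, all probes unfiltered, and probes with both channels well above background only. Leaving out wild-type replicate 1 and PRA transgenic replicate 4 together, and the median over a gene's probes well above background in both channels, were chosen after seeing the data. A block on slide was not possible, since there was 1.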

Additional observations from a re-analysis of the deposited data

Results flagged for a closer look

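Among the 4 PRA transgenic arrays, 43 sets of values were examined (31 members and 12 marker lists) for an array far from the other 3, measured as its gap to the nearest array over the whole range. Of these 5 stood out, and chance gives about 1 in 20, or 2.15 of 43. The sets were read in the same 4 animals and are not independent, so this comparison carries no test. For Was (0.84) PRA transgenic replicate 4 was high at -0.37, with the others from -1.10 to -0.98. For Nck2 (0.887) PRA transgenic replicate 3 was low at 0.059, with the others from 0.45 to 0.50. The mean of the leukocyte markers (0.892) was high on PRA transgenic replicate 4 at -0.086, against -0.576 to -0.523. The mean of the fibroblast markers (0.869) was high on the same array at 2.76, against 2.20 to 2.28. Wild-type replicates 1 and 2 were at a like level, at 2.79 and 2.66, and wild-type replicate 3 was at 2.27. The mean of the skeletal muscle markers (0.954) was high on PRA transgenic replicate 4 too at 2.51, against -0.919 to -0.761. It was also high on wild-type replicates 1 and 3, at 1.96 and 3.27, and not on wild-type replicate 2 at -1.10. The part of muscle RNA in the members' values was not tested.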

How the results depend on the processing

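The median log2 fold change over the members stayed below 0 in every alternative, and members below 0 numbered 21 to 27 of 31. No member passed an adjusted p of 0.05 under any of them. Members with an unadjusted p under 0.05 numbered 2 as reported, 7 with normexp and loess or with array weights, 4 with quantile normalization, the methods' t-test or the median over a gene's probes (also with both channels above background), and 1 to 4 with an array left out. With normexp and loess and with array weights the 7 were Actr2, Arpc5, Abi1, Abi2, Actr3, Nck2 and Wasl. Over all probes 2585 had an unadjusted p under 0.05 in limma with normexp and loess, against 3093 as reported. The share of all gene names is not given for normexp, array weights or quantile normalization, so those counts of members are not set against it. At 1.5-fold as well, the methods' t-test called 0 members and 995 of all probes. The replicate numbers do not pair the samples (correlations of same-numbered deviations 0.1, -0.297 and 0.036), and with the replicate block 1 member, Actr2, passed. Actr2 passed in 18 of 19 alternatives, all read from its brightest probe, and was lost with the median over its probes. Arpc5 passed in 11 of 19. The median over probes with both channels above background is not among these 19. There neither gene passed in limma (unadjusted p = 0.978 for Actr2 and 0.0608 for Arpc5). Members with genotypes that do not overlap numbered 6 as reported, 6 to 12 with an array left out and 13 without both wild-type replicate 1 and PRA transgenic replicate 4. The median over the members ran from -0.221 to -0.108 with an array left out, and was -0.087 with the median over a gene's probes. Of all probes 3093 had an unadjusted p under 0.05 as reported, 5154 of a larger number tested without the filter on dim probes, and 2280 to 4233 with an array left out. Of 589 values of single members in the alternatives, 28 passed where the reported value had not, 9 no longer passed and 25 had a turned sign. The cause of these shifts was not tested. With 7 arrays, differences of the size seen here, mostly within 0.2 on the log2 scale, compare with standard errors of 0.0994 to 0.427. The slide as a block was not run.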
